A study of Mus musculus with 4 samples.

Results

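The interleukin 1 and 18 receptor cluster is a row of 6 receptor genes on mouse chromosome 1, in the order Il1r2, Il1r1, Il1rl2, Il1rl1, Il18r1 and Il18rap. The genes were chosen by name and not by a rule on measured values, though earlier results of these data were known. What was measured for them are windows of 100 bp: each window of the deposited table that overlaps the annotated span of one of these genes, with 1000 bp on each side, belongs to that locus. In mm10 the annotated spans are chr1:40084692-40125230 (Il1r2), chr1:40222480-40316201 (Il1r1), chr1:40324589-40367555 (Il1rl2), chr1:40404864-40465418 (Il1rl1), chr1:40465552-40500854 (Il18r1) and chr1:40515362-40551707 (Il18rap). Il1rl1 ends 133 bp before Il18r1 begins. The choice gave 443 of the 1048575 windows in the table, over 6 of the 9572 protein-coding genes in its range, and no window fell in more than 1 of the loci.

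DNA methylation was profiled by MeDIP-seq, which sequences sonicated fragments captured by an antibody to methylated cytosine, beside input DNA that was not captured. The cells were natural killer T (NKT) cells of C57BL/6 mice, sorted from thymus as cells that bind CD1 tetramers. There was 1 MeDIP and 1 input library from wild-type (WT) mice and 1 of each from mice named PLZFon, a name whose allele the labels do not describe, and the labels give no age or number of animals. PLZF is a transcription factor needed for NKT cells to develop, and the title of the series concerns its acetylation. With 1 library in each group nothing could be tested between genotypes: all intervals are exact 95% intervals that cover counting error only, and each difference is one between 2 libraries. A methylation table does not measure marker expression, so the sort could not be checked against NKT markers.

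The libraries held between 10633609 (PLZFon MeDIP) and 60683123 (WT input) reads, with 15141449 in WT MeDIP and 50374588 in PLZFon input. The antibody label names the antibody for both WT libraries and none for both PLZFon libraries, against the titles of WT input and PLZFon MeDIP. Over the 6 loci the library titled PLZFon MeDIP stood at 4.5 times its input (4.1 to 4.94) and the one titled WT MeDIP at 4.71 times (4.36 to 5.1). Both values rest on windows listed for their MeDIP reads, so they do not settle which of the label and the title holds, and the libraries are called here by their titles. Every window in the table has a CpG factor of 1 or more and 10 or more MeDIP reads, summed over both genotypes. A window that is absent is therefore called unlisted here, and its reads are not known. The listing rests on MeDIP reads, so it can raise every MeDIP over input value.

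The receptors of this family sit in the membrane and carry immunoglobulin-like domains outside the cell. Those that signal have a Toll/interleukin 1 receptor (TIR) domain inside it, which recruits MyD88 and IRAK kinases and leads to NF-kB. NKT cells respond to interleukin 18 together with interleukin 12 by making interferon gamma, interleukin 1 acts on the cells that make interleukin 17, and interleukin 33 acts on ST2, the product of Il1rl1. Methylation of CpG sites near a transcript start is commonly low where the gene is in use and high where it is silenced, while CpG sites inside gene bodies are methylated in most cells.

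Transcript starts are shown first. Few listed windows lay near them, but over far less length than the gene bodies, so these counts are not compared. The RefSeq table (GRCm38.p6) held 10 starts for these 6 genes, all on the plus strand. Below are the 250 bases before 5 of them, with each CpG in capitals. These are the starts with the most CpG in Il1r2, Il1r1, Il18r1 and Il18rap, and a start of Il1rl1. The last is the only start of the cluster with a whole listed window inside its sequence. The 5 sequences are read 5′ to 3′ from chr1:40085843-40086092 (Il1r2), chr1:40266336-40266585 (Il1r1), chr1:40439379-40439628 (Il1rl1), chr1:40465371-40465620 (Il18r1) and chr1:40515112-40515361 (Il18rap).
Il1r2: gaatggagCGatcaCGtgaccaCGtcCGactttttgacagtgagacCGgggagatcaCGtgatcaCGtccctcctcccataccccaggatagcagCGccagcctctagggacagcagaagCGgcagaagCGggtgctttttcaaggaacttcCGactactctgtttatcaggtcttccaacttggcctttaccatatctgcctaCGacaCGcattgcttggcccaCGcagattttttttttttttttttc
Il1r1: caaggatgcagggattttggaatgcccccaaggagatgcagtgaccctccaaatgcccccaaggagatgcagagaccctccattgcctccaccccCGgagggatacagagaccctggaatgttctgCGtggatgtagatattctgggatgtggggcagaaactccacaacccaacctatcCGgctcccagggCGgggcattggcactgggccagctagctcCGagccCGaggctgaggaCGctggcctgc
Il1rl1: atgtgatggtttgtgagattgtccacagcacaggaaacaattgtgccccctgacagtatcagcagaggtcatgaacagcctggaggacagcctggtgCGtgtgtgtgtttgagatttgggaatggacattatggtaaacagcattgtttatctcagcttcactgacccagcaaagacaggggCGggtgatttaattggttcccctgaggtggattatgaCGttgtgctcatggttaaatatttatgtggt
Il18r1: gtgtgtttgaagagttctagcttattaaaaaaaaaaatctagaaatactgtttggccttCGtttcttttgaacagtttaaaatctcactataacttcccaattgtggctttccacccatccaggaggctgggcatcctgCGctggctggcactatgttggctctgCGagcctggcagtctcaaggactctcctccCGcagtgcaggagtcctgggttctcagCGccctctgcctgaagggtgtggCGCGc
Il18rap: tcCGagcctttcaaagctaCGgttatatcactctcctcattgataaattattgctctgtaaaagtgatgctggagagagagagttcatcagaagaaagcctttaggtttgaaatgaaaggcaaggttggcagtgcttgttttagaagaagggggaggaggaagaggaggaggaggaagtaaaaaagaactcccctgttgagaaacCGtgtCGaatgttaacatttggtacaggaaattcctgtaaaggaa

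These sequences held 14 CpG in Il1r2, 7 in Il1r1, 3 in Il1rl1, 7 in Il18r1 and 4 in Il18rap. Of the 32851 RefSeq starts, 29.4% had at least 14 CpG in such a stretch, 46.3% at least 7, 62.2% at least 4 and 71% at least 3. None of the 5 is therefore extreme for its CpG number, and Il1r2 is the richest of them. The CpG factor of the table could be read against such sequence: it equalled the number of CpG that begin in the window in 2531 of 2531 listed windows that lie inside a RefSeq start sequence, a count that also shows that both use the same coordinates.

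Of the whole windows inside the start sequences almost none was listed, although the DNA held CpG. The start sequences of the 6 genes, taken here with bases beyond the start, covered 18 whole windows. Some of these run past the 250 bases, such as chr1:40086001-40086100 at Il1r2. Of the 18 windows 15 had at least 1 CpG, with 36 CpG in all, and 1 of the 15 was listed. That window lies just before the second start of Il1rl1 (chr1:40439501-40439600), with 2 CpG and with 5 MeDIP reads in each genotype, beside 11 WT and 5 PLZFon input reads, the least number of MeDIP reads a listed window can have. A further listed window, chr1:40324301-40324400, overlaps the start sequence of Il1rl2 only in part and is not among the 18. It holds the 1 CpG of the 250 bases before that start, with 6 WT and 4 PLZFon MeDIP reads. Over all starts in the range of the table, 11.6% of whole windows with a CpG were listed, with 19.8% at 2 CpG and 2.49% at 7 to 9 CpG. The listed share at starts in general was thus higher at 2 CpG than at 7 to 9 CpG. Such a share was not known away from starts, and the starts of the cluster were not compared further.

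The stretch without a listed window was longest around the start of Il18rap. It spanned 11200 bp (chr1:40513701-40524900) there, 6500 bp around the start of Il1r2 (chr1:40080801-40087300) and 6400 bp around the 3 starts of Il18r1 (chr1:40464301-40470700). In Il1r1 it spanned 1500 bp at the first start and 1800 bp at the CpG-rich second start, in Il1rl2 1700 bp, and in Il1rl1 5500 bp at the first start and 100 bp at the second. Over 9786 starts of protein-coding genes the median was 5100 bp, and 22.7% had a stretch at least as long as that of Il18rap, 40.6% as long as that of Il1r2 and 41.4% as long as that of Il18r1. Whether the windows beyond the start sequences hold CpG was not known, since no genome was used here. No CpG, few MeDIP reads and rows left out of the table therefore cannot be told apart in them.

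**Figure D1:**
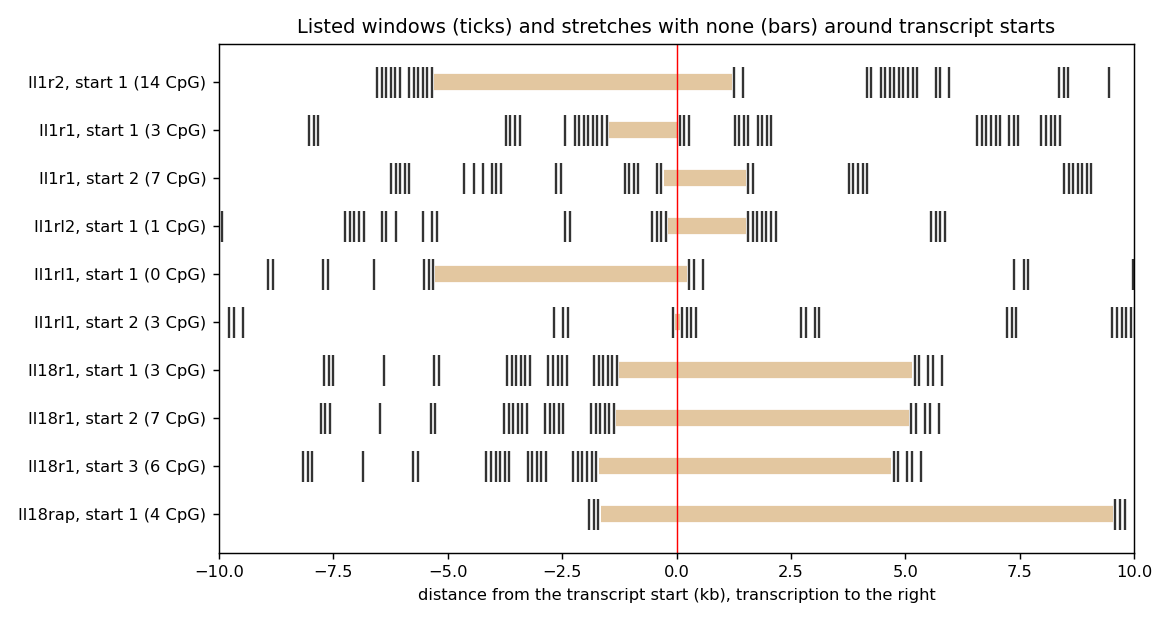
Listed windows (ticks) and the stretch with none that holds each transcript start (bars), for the 10 RefSeq starts of the 6 genes, by distance from the start in kb. The labels give the CpG in the 250 bases before each start. The bar of Il18rap is the longest at 11200 bp and that of the second start of Il1rl1 the shortest at 100 bp.

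Where listed windows lay within 1000 bp of a start, reads were few. They are given here as window sums divided by 4, since a read is counted in about 4 windows. Where few adjacent windows are listed this understates the reads: chr1:40439701-40439800 in Il1rl1 alone had 17 WT and 11 PLZFon reads. The second start of Il1rl1 had 5 windows within that distance. Their divided sums were 15.5 WT and 10.2 PLZFon reads. The ratio, PLZFon over WT after scaling to library totals, was 0.942 (0.384 to 2.21). The second start of Il1r1 also had 5, with 10.2 and 9.75 reads (1.35, 0.504 to 3.61), and the start of Il1rl2 had 4, with 8 and 3.75 reads. The first starts of Il1r1 (5.75 and 5.25 reads) and Il1rl1 (9 and 2 reads) had 3 each. No window was listed within 1000 bp of a start of Il1r2, Il18r1 or Il18rap, so nothing could be compared there.

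Over whole loci the MeDIP level, in RPM (reads scaled to a common library total) per kb of locus, was highest in the interleukin 1 receptors and lowest in the interleukin 18 receptors in both genotypes. Only reads of listed windows enter this level and unlisted windows count as 0, so it also follows the share of a locus that is listed. In WT cells Il1r1 had the highest level at 0.409 (0.377 to 0.444), then Il1r2 at 0.317 (0.275 to 0.363), Il1rl2 at 0.291 (0.252 to 0.335), Il1rl1 at 0.222 (0.193 to 0.254), Il18r1 at 0.174 (0.142 to 0.212) and Il18rap at 0.124 (0.097 to 0.156). In PLZFon cells the order was the same, from 0.362 (0.326 to 0.401) in Il1r1 to 0.137 (0.103 to 0.178) in Il18rap. Il1r1 stood 3.3 times above Il18rap in WT (2.58 to 4.28) and 2.65 times in PLZFon (1.99 to 3.57). Of neighbours in this order, Il1r2 and Il1rl2 did not differ beyond counting error in WT (1.09, 0.89 to 1.33), nor did Il1rl1 and Il18r1 (1.27, 0.999 to 1.64). In WT Il1r1 lay above Il1r2 (1.29, 1.1 to 1.52), Il1rl2 above Il1rl1 (1.31, 1.07 to 1.6) and Il18r1 above Il18rap (1.41, 1.03 to 1.93). In PLZFon Il1r1 over Il1r2 was the only neighbouring pair whose interval excluded equality (1.23, 1 to 1.51).

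The share of each locus that was listed, which enters that level, was lowest in the interleukin 18 receptors. Il1r2 had 73 of 427 windows listed (17.1%), Il1r1 158 of 959 (16.5%), Il1rl2 67 of 451 (14.9%), Il1rl1 80 of 627 (12.8%), Il18r1 33 of 374 (8.82%) and Il18rap 32 of 385 (8.31%). The median over 7668 protein-coding loci with at least 20 MeDIP reads was 15%, with the middle 50% from 9% to 21.9%. Il18r1 and Il18rap, the pair of chains of the interleukin 18 receptor, were therefore just below the middle range, and the other 4 were inside it. Their listed windows were also the poorest in CpG, with a mean factor of 1.94 in Il18r1 and 1.69 in Il18rap against 2.01 to 2.36 in the others and 2.34 over all listed windows. The CpG content of unlisted windows was not known, so its part in these levels was not tested.

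**Figure D2:**
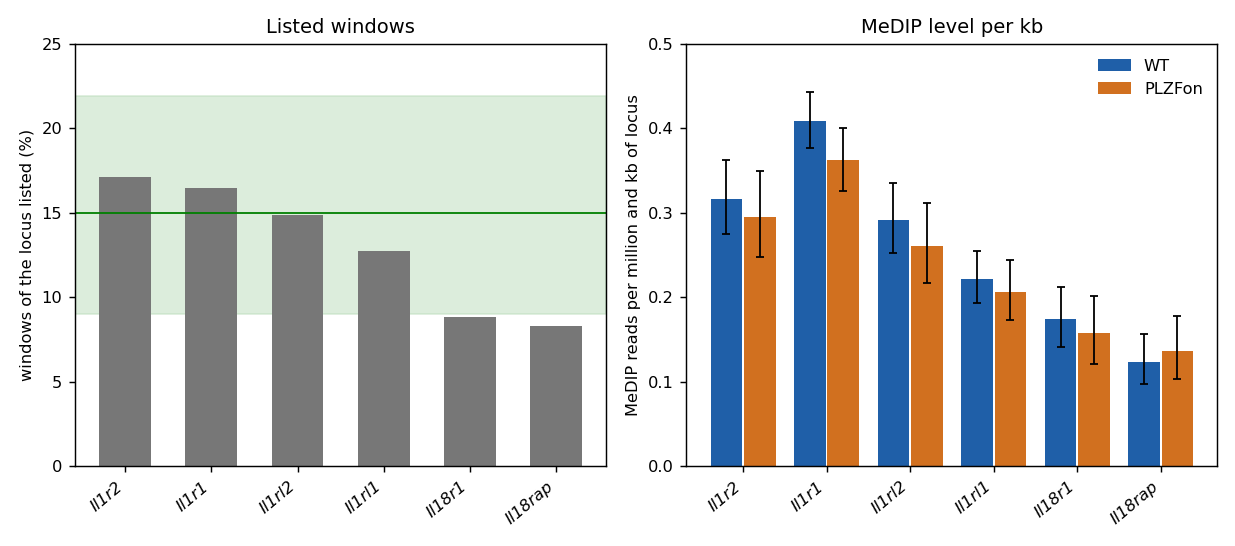
Left, percent of the windows of each locus that are listed (bars), with the median (line) and the middle 50% (band) of 7668 protein-coding loci. Right, MeDIP RPM of the listed windows per kb of locus in WT (blue) and PLZFon (orange), with exact 95% counting intervals. Both are lowest in Il18r1 and Il18rap, which have 8.82% and 8.31% of their windows listed, while Il1r1 has the highest level.

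In the listed windows themselves the 6 genes lay closer together in MeDIP over input than in level per kb. In WT cells MeDIP over input was 4.68 in Il1r2 (3.8 to 5.75), 5.06 in Il1r1 (4.48 to 5.72), 4.49 in Il1rl2 (3.65 to 5.53), 4.08 in Il1rl1 (3.35 to 4.96), 5.54 in Il18r1 (4.04 to 7.61) and 4.08 in Il18rap (2.9 to 5.74). In PLZFon cells it was 4.75 in Il1r2 (3.71 to 6.08), 4.56 in Il1r1 (3.94 to 5.28), 4.28 in Il1rl2 (3.34 to 5.5), 4.12 in Il1rl1 (3.25 to 5.21), 4.68 in Il18r1 (3.25 to 6.74) and 4.96 in Il18rap (3.35 to 7.35). The intervals of the 6 genes overlapped each other within each genotype, which is not a test of a difference between 2 genes. In MeDIP RPM per listed window Il1r1 was highest, at 0.994 in WT against 0.596 (Il18rap) to 0.791 (Il18r1) in the others. In PLZFon it stood at 0.879 against 0.648 (Il1rl1) to 0.715 (Il18r1). Its input RPM per listed window was also the highest of the 6, at 0.196 in WT and 0.193 in PLZFon. The median locus stood at 4.18 in WT and 3.97 in PLZFon, inside every interval of the 6 in PLZFon and inside all but that of Il1r1 in WT. TMM scaling of all 4 libraries, which takes most windows to be equal, brought the 6 genes to between 1.01 and 1.38, and windows with at least 20 MeDIP reads alone gave up to 11.4.

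MeDIP reads rose with CpG in these loci as they did in the whole table. In WT cells the windows of the 6 loci with a CpG factor of 1 stood at 4.12 times input (3.59 to 4.72) and those with a factor of 4 and above at 6.91 times (5.66 to 8.46). In PLZFon cells these values were 3.94 (3.34 to 4.64) and 5.57 (4.42 to 7.04). Over all listed windows the range was from 3.68 to 6 in WT and from 3.57 to 5.56 in PLZFon. Mean RPM there rose from 0.693 to 1.14 in the library titled PLZFon MeDIP, whose label names no antibody, and from 0.704 to 1.22 in WT MeDIP. In the library titled WT input, whose label names the antibody, it went from 0.191 to 0.203, and in PLZFon input from 0.194 to 0.205. The authors' relative methylation score, which relates reads to CpG content, had a mean of 0.635 in WT and 0.573 in PLZFon over the 443 windows. Over all listed windows it was 0.625 and 0.57, so the lower PLZFon score was shared with the table as a whole. The score did not follow library totals: at chr1:40123301-40123400, 12 reads in each genotype gave 0.64 in each, at a scaled ratio of 1.42. PLZFon MeDIP had fewer reads in all than WT MeDIP, so its lower score is not read as lower methylation.

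The most MeDIP reads of the cluster, by window and by run, lay near the end of Il1r1, which encodes the signalling receptor for interleukin 1 alpha and beta. A run of 8 adjacent listed windows (chr1:40307201-40308000) holding 31 CpG, followed after 1 unlisted window by a run of 9 (chr1:40308101-40309000) holding 27 CpG, ended 8.2 and 7.2 kb before the annotated end of the gene. The gene table gives no exons, so whether this is exon or intron is not stated. The window with the most MeDIP reads (chr1:40307501-40307600, 6 CpG) had 82 WT and 43 PLZFon MeDIP reads, with 19 and 18 input reads. The next highest window outside Il1r1 had 51 MeDIP reads. The first run stood at 10.4 times input in WT (7.14 to 15.4) and 8.67 times in PLZFon (5.56 to 13.7), and the second at 7.72 (5.39 to 11.2) and 5.18 (3.3 to 8.13). Some shorter runs with fewer reads stood higher over input in WT, such as chr1:40293101-40293300 in Il1r1 (12.7, 4.3 to 46.1) and chr1:40098901-40099400 in Il1r2 (12.4, 5.35 to 32.4), with intervals that overlap those of the first run.

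In Il18r1 and Il18rap most listed windows also lay towards the end of the gene. Il18r1, the ligand-binding chain, had 7 listed windows before its midpoint and 26 after it (78.8% after), and Il18rap, the accessory chain needed for signalling, had 3 and 29 (90.6%). In the other genes 54.8% (Il1r1) to 65.1% (Il1rl2) lay after the midpoint, and the median over 6460 loci with a known strand was 55.1%. At least 78.8% was reached by 13.9% of those loci and at least 90.6% by 7.51%. Each of the 2 genes had its longest run of listed windows there, 12 windows in each: chr1:40498101-40499300 in Il18r1 with 30 CpG and chr1:40546801-40548000 in Il18rap with 22 CpG. WT MeDIP stood at 8.09 times input (5.08 to 13.2) over the first and 5.15 times (2.94 to 9.12) over the second.

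**Figure D3:**
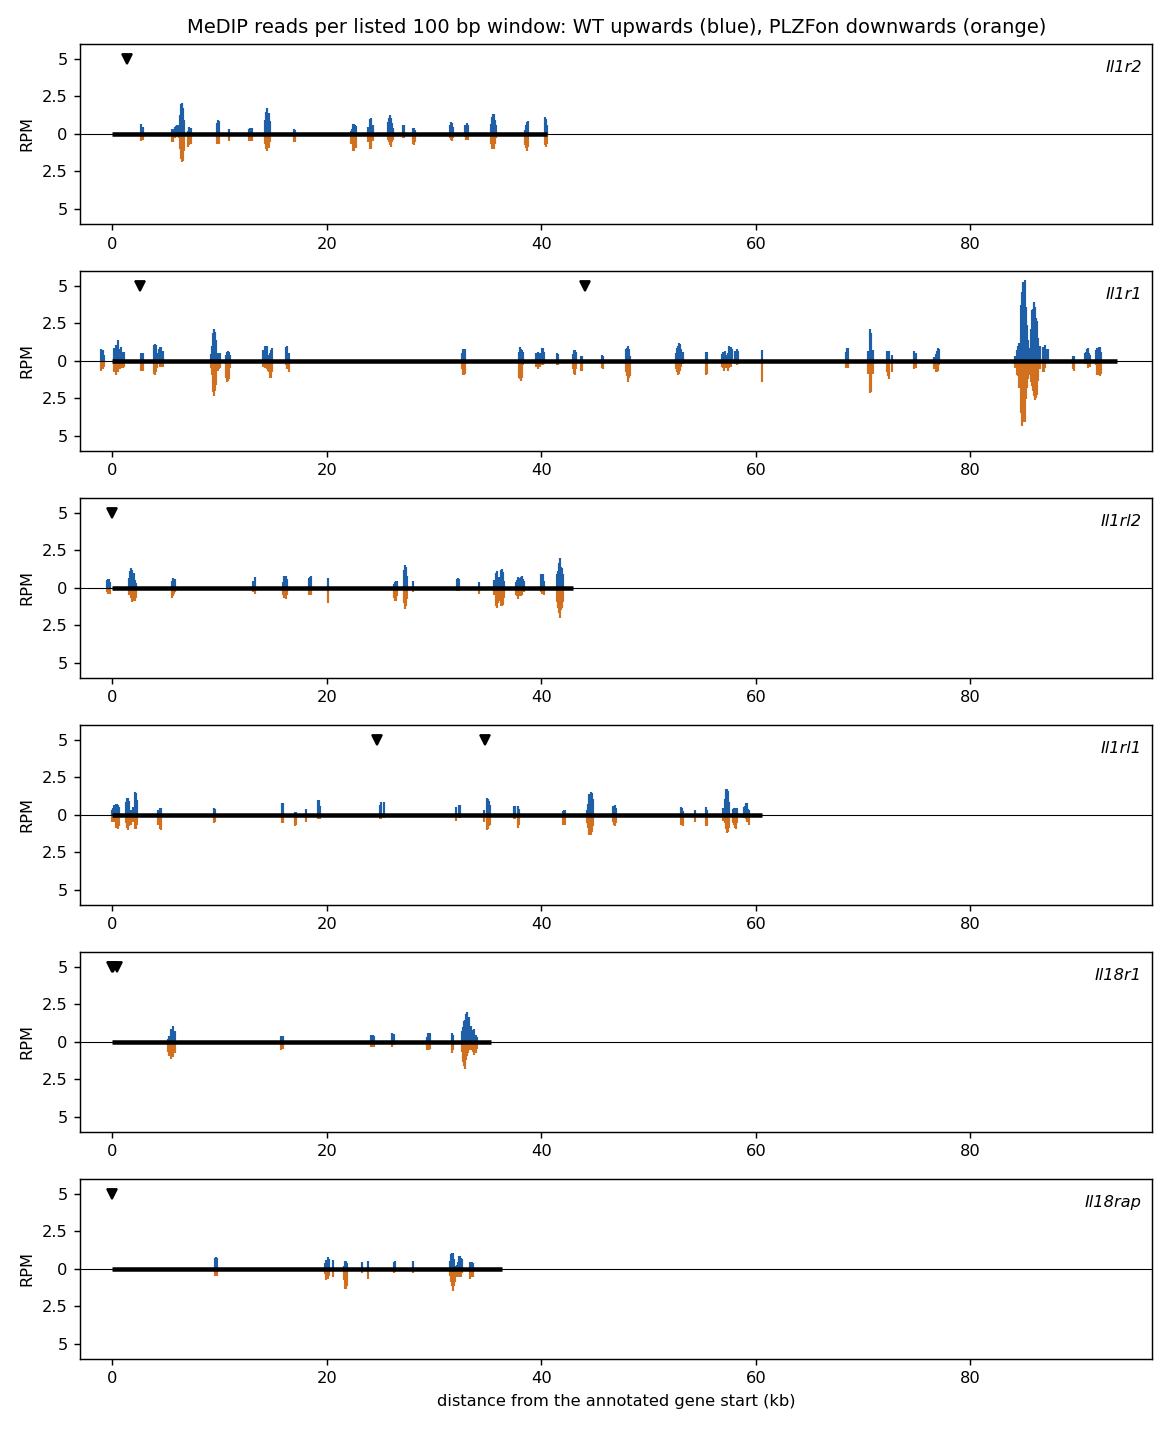
MeDIP RPM in each listed 100 bp window of the 6 genes, WT upwards and PLZFon downwards, by distance from the annotated gene start in kb; the thick line is the annotated gene and triangles mark RefSeq transcript starts. The tallest signal is the pair of runs near the end of Il1r1 in both libraries, and Il18r1 and Il18rap have few listed windows before the midpoint.

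The question of the series, whether NKT cells of PLZFon mice differ from WT, was asked of each locus by the ratio of depth-scaled MeDIP reads, PLZFon over WT. To pass, a locus needed 20 or more MeDIP reads, a ratio 2-fold or more from equality and an interval that left equality out. None of the 6 loci passed, and none of the 6 intervals excluded equality. Of 7668 protein-coding loci, 0.443% passed (0.0913% higher and 0.352% lower) and 6.25% had an interval excluding equality.

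Of the interleukin 1 receptors, Il1r1 had 594 WT and 369 PLZFon MeDIP reads, with 471 and 384 input reads. Its ratio of 0.885 (0.775 to 1.01) was the lowest of the 6 and its input ratio was 0.981 (0.855 to 1.13). Il1r2, which encodes a decoy receptor that binds interleukin 1 and does not signal, had 205 WT and 134 PLZFon reads, a ratio of 0.932 (0.744 to 1.16). Its input ratio was 0.918 (0.728 to 1.16), close to its MeDIP ratio.

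Of the receptors for other ligands, Il1rl2, which encodes the interleukin 36 receptor, had 199 WT and 125 PLZFon reads and a ratio of 0.896 (0.711 to 1.13). Il1rl1, which encodes the interleukin 33 receptor ST2, had 211 WT and 138 PLZFon reads and a ratio of 0.93 (0.744 to 1.16). Both intervals include equality, and the inputs stood at 0.94 (0.747 to 1.18) and 0.92 (0.744 to 1.14).

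The interleukin 18 receptor rested on the fewest reads. Il18r1 had 98.8 WT and 62.8 PLZFon MeDIP reads, a ratio of 0.905 (0.649 to 1.25), with an input ratio of 1.07 (0.751 to 1.52). Il18rap had 72.2 and 56 reads, a ratio of 1.1 (0.764 to 1.59), with an input ratio of 0.908 (0.624 to 1.31). It was the only one of the 6 with more scaled reads in PLZFon, and its interval overlapped all the others. A change of 2-fold in either direction lay outside all 6 intervals.

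**Figure D4:**
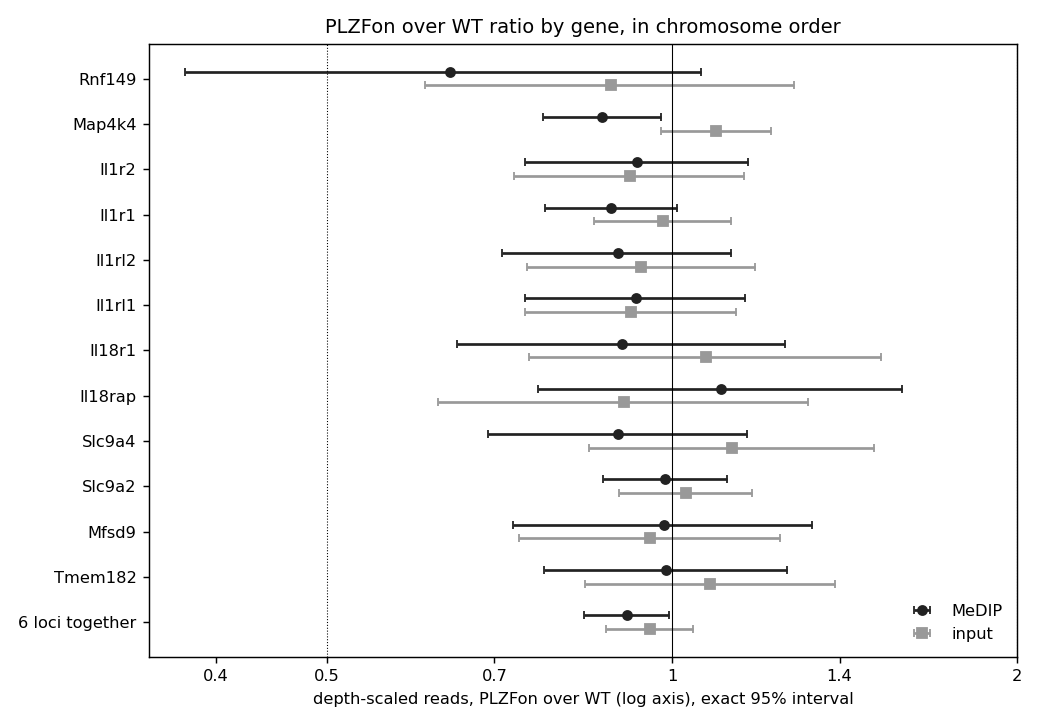
Ratio of depth-scaled reads, PLZFon over WT, for MeDIP (circles) and input (squares) with exact 95% intervals on a log axis, for the 6 receptor genes, the flanking genes in chromosome order and the 6 loci together. Dotted lines mark 2-fold. The MeDIP intervals of the 6 genes all include 1 and lie within 2-fold.

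Summed, the 6 loci had 1380 WT and 885 PLZFon MeDIP reads, a ratio of 0.913 (0.838 to 0.994), with an input ratio of 0.956 (0.876 to 1.04). The listed windows of the whole table stood at 0.964, which lies inside that interval, and the windows between the loci at 0.912 (0.777 to 1.07). With TMM factors the sum was 0.947 (0.869 to 1.03), which includes equality. The median log2 ratio of the 6 loci was -0.12, beside -0.06 over all protein-coding loci.

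Windows were compared by the same rule, with at least 20 MeDIP reads in the window. Of 160 such windows in the 6 loci 2 passed, both lower in PLZFon and both in the last run of Il18r1. The window chr1:40498601-40498700, with 6 CpG, had 30 WT and 10 PLZFon reads and 12 and 11 input reads, a ratio of 0.475 (0.207 to 0.998). The window chr1:40498801-40498900, with 2 CpG, had 25 and 6 reads and 10 and 8 input reads, a ratio of 0.342 (0.115 to 0.853). They lie 1 window apart and a read is counted in about 4 windows, so they share reads and are not independent. Over their whole run Il18r1 had 57.5 WT and 30 PLZFon reads, a ratio of 0.743 (0.461 to 1.17). Of the 5 windows of the run before the first of them, 3 were above equality (up to 1.33) and 2 below it (0.906 and 0.661).

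These 2 windows are 1.25% of those compared, where 3.3% of 409114 windows of the table passed (1.13% higher and 2.17% lower). The inputs by the same rule gave 5 of 166 windows in the 6 loci and 3.36% in the table. With TMM factors 3 windows were higher and 1 lower: chr1:40233101-40233200 in Il1r1 (15 PLZFon and 9 WT reads) and the adjacent windows chr1:40537001-40537100 and chr1:40537101-40537200 in Il18rap (14 and 8 reads in each) passed, chr1:40498801-40498900 in Il18r1 stayed lower and chr1:40498601-40498700 no longer passed. The share and the direction of single windows thus moved with the scaling.

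In the other genes the most extreme windows had intervals that include equality. In Il1r2 the ratio ran from 0.534 (chr1:40110401-40110500, 16 WT and 6 PLZFon reads) to 1.71 (chr1:40107101-40107200, 10 and 12 reads). In Il1r1 it ran from 0.445 (chr1:40309401-40309500, 16 and 5 reads) to 2.37 (chr1:40233101-40233200, 9 and 15 reads). In Il1rl2 it ran from 0.419 (chr1:40326201-40326300, 17 and 5 reads) to 1.57 (chr1:40344601-40344700, 10 and 11 reads). In each of these genes the extremes rest on 21 to 24 reads.

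Of the remaining genes, Il1rl1 and Il18rap also had extremes whose intervals include equality. In Il1rl1 the ratio ran from 0.534 (chr1:40461901-40462000, 16 and 6 reads) to 1.42 (chr1:40405301-40405400, 10 and 10 reads). In Il18rap it ran from 0.854 (chr1:40546901-40547000, 15 and 9 reads) to 2.49 (chr1:40537001-40537100, 8 and 14 reads). The windows with the most MeDIP reads had ratios from 0.712 to 1.42 in these 5 genes: 31 WT and 20 PLZFon reads in Il1r2 (chr1:40091101-40091200, 0.919), 30 and 21 in Il1rl2 (chr1:40366301-40366400, 0.997), 26 and 13 in Il1rl1 (chr1:40462101-40462200, 0.712), 22 and 19 in Il18r1 (chr1:40498401-40498500, 1.23) and 16 and 16 in Il18rap (chr1:40547101-40547200, 1.42). All of their intervals include equality.

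Of the strong runs of Il1r1, the second had an interval below equality and the first did not. The first had 103 WT and 59.5 PLZFon reads, a ratio of 0.823 (0.587 to 1.14), and the second 92.5 and 44.2 reads, a ratio of 0.681 (0.465 to 0.985). In the second run the window chr1:40308201-40308300 had 51 and 18 reads, a ratio of 0.503 (0.276 to 0.875), just short of 2-fold, with 16 and 17 input reads. In all, 5 of the 160 windows had an interval excluding equality, 3 adjacent ones here and the 2 of Il18r1, beside 3.89% of windows in the table. This run and window were singled out after their values were seen. The part of Il1r1 after its midpoint, which holds both runs, stood at 0.834 (0.705 to 0.985) and the part before it at 0.986 (0.788 to 1.23). The later part contains the reads of both runs, so its ratio is not separate support. Ratios of such parts were not compared with other loci.

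In bins of 5 kb, which pool the listed windows in them (at most 26 in these loci), none of 37 bins with at least 20 reads passed the rule, against 1.08% of bins in the table (0.392% higher and 0.689% lower). The ratios ran from 0.532 to 1.94 with a median of 0.901, 14 above and 23 below equality. All listed windows of the table together stood at 0.964, and the share of its bins below equality was not computed. The bin that holds the strong runs of Il1r1 (chr1:40305001-40310000) had 224 WT and 121 PLZFon reads, a ratio of 0.767 (0.609 to 0.961) with an input ratio of 1.08 (0.814 to 1.42), and was the only one with an interval excluding equality, beside 2.84% of bins in the table. That bin contains the reads of those runs and is not separate support. The bins with the lowest and the highest ratio, in Il1r1 (chr1:40280001-40285000) and around the annotated start of Il1rl1 (chr1:40400001-40405000), had 20.8 WT and 7.75 PLZFon reads and 13.8 and 18.8 reads, and their intervals include equality.

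**Figure D5:**
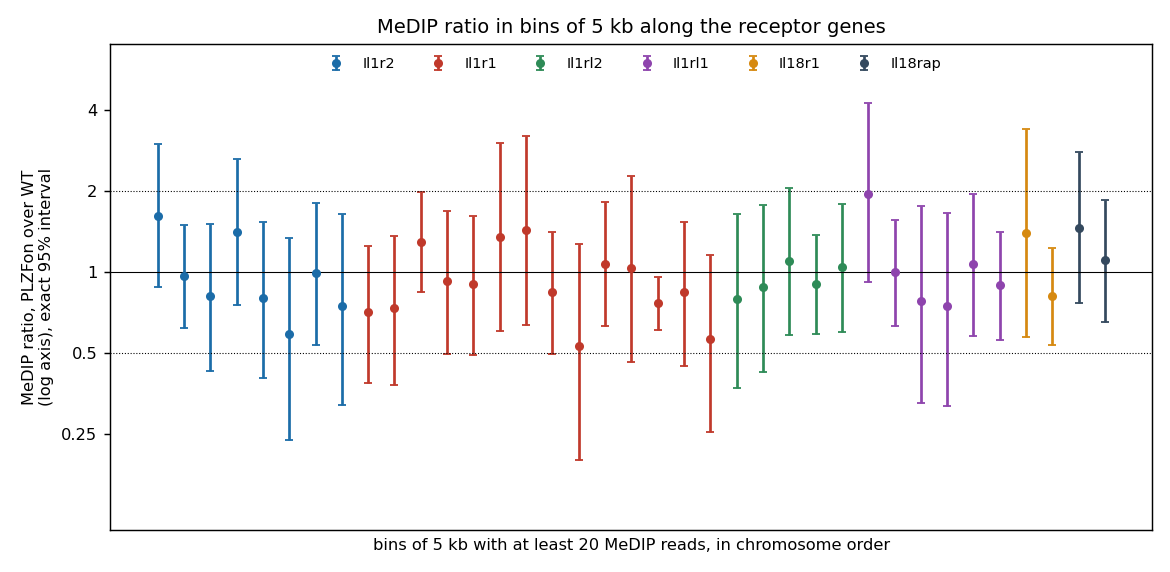
MeDIP ratio, PLZFon over WT, with exact 95% intervals on a log axis in the 37 bins of 5 kb that overlap the 6 loci and hold at least 20 MeDIP reads, in chromosome order and coloured by gene. Dotted lines mark 2-fold. The points scatter around 1 from 0.532 to 1.94, and 1 interval, in Il1r1, lies below 1.

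The genes on either side of the cluster did not pass the rule either. Before it, Map4k4, which encodes a kinase, had 748 WT and 456 PLZFon reads, a ratio of 0.869 (0.772 to 0.978), with an input ratio of 1.09 (0.977 to 1.22), and Rnf149, farther away, had 52.2 and 23.5 reads (0.64, 0.376 to 1.06). After it, the sodium/proton exchanger genes Slc9a4 and Slc9a2 had ratios of 0.898 (0.69 to 1.16) and 0.986 (0.871 to 1.12), and Mfsd9 and Tmem182 0.983 (0.726 to 1.32) and 0.988 (0.773 to 1.26). Map4k4 was the only one of these 6 genes whose interval excluded equality, and none passed the 2-fold rule. Slc9a4, beside Il18rap, had 9.64% of its windows listed, close to the interleukin 18 receptor genes, and Map4k4, beside Il1r2, had 20.2%.

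Of the ligands and signalling genes of this receptor family, 13 of a list of 36 lay in the range of the table and 8 had at least 20 reads. Over 5 windows, the ligand gene Il1b had 19.2 WT and 24 PLZFon reads and the highest log2 ratio of the 8, at 0.83 (ratio 1.78, 0.934 to 3.42), while its input ratio was 0.551 (0.206 to 1.34). Il1rn, which encodes the interleukin 1 receptor antagonist, had a log2 ratio of 0.18 (12.2 WT and 9.75 PLZFon reads). The lowest were Map3k7, which encodes the kinase TAK1 that acts downstream of the receptors, and Il1a, each with a log2 ratio of -0.19, on 185 and 18.2 WT against 114 and 11.2 PLZFon reads. None of the 8 passed the rule or had an interval excluding equality, and their median log2 ratio was -0.04, beside -0.06 over all protein-coding loci.

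Of 3552 other protein-coding loci with at least 200 MeDIP reads, the 3 most like the sum of the 6 loci, by the distance of log2 RPM per listed window over the 4 libraries, were Slc44a3 (distance 0.0175), Usp6nl (0.03) and Gpa33 (0.0494). Their MeDIP ratios were 0.918, 0.891 and 0.875, values that the choice itself brings near that of the cluster. With 4 libraries this likeness is a description.

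The authors' deposited table gives a p-value for each window from edgeR. In the 6 loci 12 of 443 windows had a p below 0.05 in the authors' deposited table, 4 higher and 8 lower in PLZFon, beside 3.31% of all windows, and none had an adjusted p below 0.05, beside 0.0144%. Over these 443 windows the smallest p in the authors' deposited table was 0.0189 (log2 fold change -0.93, adjusted p of 1), for the window of Il1r1 at chr1:40308201-40308300, in the second of its strong runs.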

How the data were processed

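Read counts in 100 bp windows, RPKM values, and the authors' relative methylation score and CpG factor (a score too) were deposited, per the file headers. Log2 fold changes, p-values and adjusted p-values were deposited by the authors from their own edgeR fit. BWA, edgeR and mm10 are named in the submitters' processing notes, and the file headers name sorted, unique alignments; versions are not given in the sources used here. Fragments had a median of 180 to 230 bp, per the labels' protocols.

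Library totals were recovered from the bounds that counts and rounded RPKM set on them, and scaled all reads. Columns were matched to titles (the headers write PLZon). Window sums were divided by 4 to give reads: neighbouring input windows differed by 0.262 (PLZFon) and 0.265 (WT) times the squared difference that unshared reads would give, so a read is counted in about 4 windows. The same measure was 0.616 (PLZFon) and 0.86 (WT) in MeDIP, which would be 1.62 and 1.16 windows per read. It also holds differences in signal between neighbouring windows, so the inputs set the divisor for all libraries. A smaller divisor moves no ratio and narrows every interval of a sum over windows. The 443 windows lay in 139 runs, and a read at the edge of a run falls in fewer listed windows. Divided sums can therefore understate reads, and their intervals can be too wide. Reads of single windows are not divided. Ratios of scaled reads have exact (Clopper-Pearson) 95% intervals, and levels per kb exact Poisson intervals. PCR duplicates are not covered. Gene spans and start sequences came from RefSeq tables of GRCm38.p6, the same primary assembly as mm10; 35 of 36 listed signalling symbols matched, older symbols included. Tools were Python 3.11.15, scipy 1.17.1 and edgeR 4.0.16 (TMM factors). The interval and rule were tested on simulated data.

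Members and lists were chosen with earlier results of these data known. Named windows were, in each gene, the one with the most MeDIP reads, the highest and lowest ratio with at least 20 reads, and those past the rule; of the list, the 2 highest and 2 lowest. Alternatives were TMM factors, scaling by listed windows or within CpG classes, other flanks, bins, read minimums and windows per read.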

Additional observations from a re-analysis of the deposited data

How the results depend on the processing

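Over 11 alternatives the ratios of the 6 loci ran from 0.795 to 1.5, and all 66 values stayed inside the interval of the value reported. The interval of Il1r1 alone excluded equality, with a flank of 5000 bp (0.869, 0.763 to 0.989) and with a read counted in 3 windows (0.885, 0.789 to 0.991). MeDIP over input with TMM factors over all 4 libraries, which remove most of the enrichment by construction, was 1.16 (Il1r2), 1.26 (Il1r1), 1.12 (Il1rl2), 1.01 (Il1rl1), 1.38 (Il18r1) and 1.01 (Il18rap) in WT and 1.23 (Il1r2), 1.19 (Il1r1), 1.11 (Il1rl2), 1.07 (Il1rl1), 1.22 (Il18r1) and 1.29 (Il18rap) in PLZFon. With windows of at least 20 MeDIP reads, a choice made on the MeDIP reads themselves, it was 7.84 (Il1r2), 6.39 (Il1r1), 6.28 (Il1rl2), 6.59 (Il1rl1) and 9.16 (Il18r1) in WT and 6.13 (Il1r2), 6.13 (Il1r1), 6.28 (Il1rl2), 6.00 (Il1rl1) and 11.4 (Il18rap) in PLZFon. Summed, the 6 loci had an interval including equality with TMM factors (0.947), scaling by listed windows (0.947) or within CpG classes (0.945), a flank of 5000 bp (0.934), 5 windows per read (0.913), windows of at least 20 reads (0.914) or a CpG factor of 2 or more (0.918), and after division by the input ratio (0.955). Windows past the rule numbered 9 of 443 with a minimum of 10 reads (3 higher and 6 lower, beside 1.39% higher and 1.57% lower of all windows). With a ratio of 1.5 they numbered 5 of 160 (all lower, beside 1.28% higher and 2.55% lower). With TMM factors they numbered 4 of 160 (3 higher and 1 lower, beside 1.8% higher and 1.74% lower). The count reported was 2 of 160, both lower, beside 3.3%. The cause of the change with TMM factors was not tested. No paired analysis was possible because each group has 1 library, and for the same reason no replicate could be left out. Depth limits Il18r1 and Il18rap most, with 162 and 128 MeDIP reads over both libraries.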
